A study of Papio anubis with 767 samples.

Results

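The HOX genes of the baboon were described here across 64 tissues. They are the 32 rows of the expression table whose symbol is HOX with a cluster letter from A to D and a number, of 29202 rows in all. Cluster A gave 9 rows, cluster B 9, cluster C 9 and cluster D 5. The RefSeq gene list of the baboon names 39 such genes. The other 7 (HOXA10, HOXA13, HOXB2, HOXD8, HOXD10, HOXD11 and HOXD13) were not analysed here. The donors were 12 male baboons, labelled Papio anubis hamadryas, of 5 to 6 years and 7 to 11 kg, none of them treated. They were kept in 12 h of light and 12 h of dark with 2 meals a day, and 1 animal was taken at each of 12 times, every 2 h, written as zeitgeber times ZT0 to ZT22. Each died by a lethal dose of pentobarbital and was perfused with cold Ame's solution before its tissues were taken. Every tissue has 12 polyA-selected RNA libraries, 1 from each animal, except the iris with 11. The names of 8 library columns carry the word approx beside the time, whose meaning is not given in the sources used here; of the tissues compared below, gastrocnemian muscle and mesenteric fat have 1 such library each, both of ZT2. Because each time is a single animal, time and animal cannot be told apart.

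HOX genes encode homeodomain transcription factors. In vertebrates they lie in clusters, and a gene's place in its cluster matches where along the body its expression starts in the embryo, so that low-numbered genes start in the hindbrain and neck and high-numbered genes in the lumbar, pelvic and tail region. Genes of the same number in different clusters are paralogues, and adult cells of the trunk keep much of this pattern, while the forebrain forms in front of it. HOX proteins bind DNA together with partners of the PBX, MEIS and PKNOX families, and their expression is kept on or off by Polycomb and trithorax chromatin proteins.

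Levels are the authors' FPKM (fragments per length of gene, scaled for library depth), a unit per gene length, and a gene is called expressed in a tissue when its mean over the libraries is at least 1 FPKM. The depth recovered from the table ran from 32790 reads in the shallowest library to 31811286 in the deepest, with a median of 8255404. By lists of marker genes, 100 libraries in 33 tissues stood at least 20 times above or below the median library of their tissue. They are said here to hold or lack markers, whether or not the list is of the tissue's own cells. Pericardial fat of ZT2 was flagged for holding adipocyte markers, prostate of ZT12 for prostate epithelium markers, and omental fat of ZT0 for lacking smooth muscle markers. The calls of tissue comparisons and rhythms are given below with and without the 100 libraries. All 12 libraries labelled adrenal cortex had a summed level of adrenal cortex markers of 0.365 to 33.5 FPKM, with CYP11A1 at 0 in 7 of them, and a summed level of smooth muscle markers of 4130 to 28831 FPKM. In the libraries labelled adrenal medulla the adrenal cortex sum was 4428 to 19261 FPKM in 11, and only the library of ZT0 was led by chromaffin markers (10039 FPKM). Both tissues therefore stand here under their labels alone. In bulk tissue, fewer cells of a type and less RNA per cell cannot be told apart.

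Of the 2048 pairs of a member and a tissue, 396 reached 1 FPKM, and 191 of these did so in every library. The number of expressed members climbed from head to trunk. In the 29 tissues of the head 15 pairs reached 1 FPKM, and 22 of all 64 tissues had none. Outside the head, 32 of 35 tissues expressed at least 1 member, the exceptions being thyroid, heart and liver. The labels give no site for 5 of the 35 (skin, subcutaneous fat, white adipose tissue, smooth muscle and bone marrow), which were counted as outside the head. Those 32 tissues held 31 distinct sets. The only set found in more than 1 of them was that of the stomach fundus, shared with the libraries labelled adrenal cortex. A member passing the filter on low values was expressed in a median of 13 tissues, against 47 for all rows that passed.

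**Figure D1:**
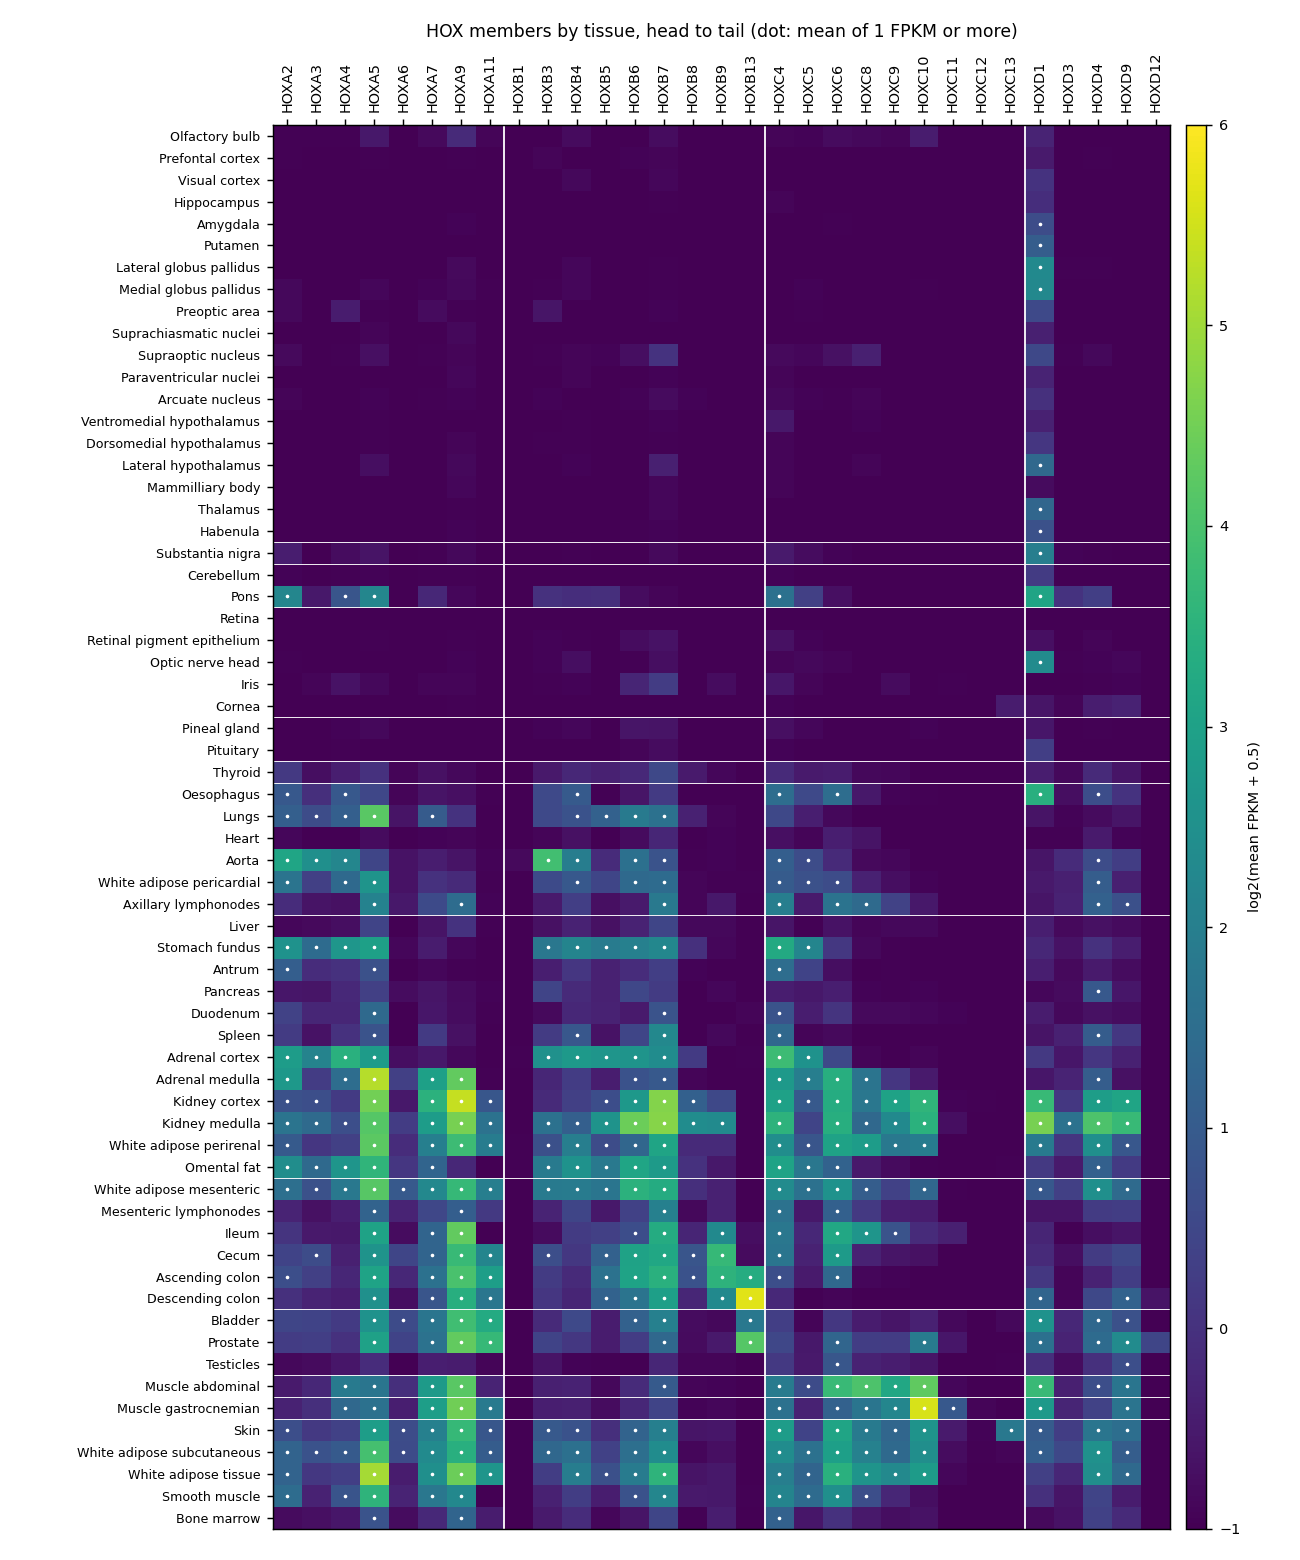
Heat map of 31 of the 32 HOX genes (columns, by cluster and number) in 64 tissues (rows). The rows run head to tail except for 5 tissues whose site is not given. Colour is log2 of the mean FPKM plus 0.5 over the 12 libraries (11 for the iris), and a dot marks a mean of at least 1 FPKM. Dots are nearly absent from the brain, eye and head glands apart from HOXD1 and the pons, and spread through the trunk to the kidney medulla.

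The heat map of members by tissue shows the richest sets in the kidney, fat and skin. Kidney medulla expressed 24 members, mesenteric and subcutaneous fat 22 each, and kidney cortex, perirenal fat and skin 20 each. The summed HOX level of a kidney medulla library was 59.2 FPKM at the lowest, 260.4 at the median and 316.0 at the highest. The whole retina, at the other end, had a mean sum of 0.00817 FPKM. The highest paralogue group expressed was group 5 in the pons, 7 in lungs, aorta, stomach fundus and duodenum, 9 in the ileum, 11 in the kidney cortex, and 13 in the descending colon, prostate, bladder and skin. It did not run evenly down the body, being 5 in the antrum and 4 in the pancreas, and 9 in the axillary and mesenteric lymph nodes and in the testicles. The share of the summed level that came from groups 9 to 13 was 2.41% in the oesophagus, 0.604% in the stomach fundus, 1.01% in the antrum, 3.70% in the duodenum, 38.2% in the ileum, 41.2% in the cecum, 51.3% in the ascending colon and 74.0% in the descending colon. It was 73.1% in the gastrocnemian muscle of the leg, against 43.5% in the abdominal muscle. Near the threshold, HOXA7 in the axillary lymph nodes (0.997 FPKM) and HOXB3 in pericardial fat (0.980 FPKM) fell just outside, while HOXA6 in subcutaneous fat (1.00 FPKM) and in bladder (1.02 FPKM) fell just inside.

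In the head, only the pons held a set. It expressed 6 members, HOXA2, HOXA4, HOXA5, HOXC4 and HOXD1 among them, with a summed mean of 29.6 FPKM. The other 9 expressed pairs in the head were all HOXD1, which in mice is known from sensory neurons of the pain pathway. HOXD1 averaged 8.02 FPKM in the pons, 4.68 in the optic nerve head, 4.48 and 4.35 in the lateral and medial globus pallidus, 3.47 in the substantia nigra, 2.07 in the lateral hypothalamus, 1.97 in the thalamus, 1.59 in the putamen, 1.18 in the habenula and 1.04 in the amygdala. It was 0.206 FPKM in the Prefontal cortex and 0.0815 FPKM in the Mammilliary body. The order over the 22 brain tissues ran with the level of oligodendrocyte markers (the median of a list that includes MOG and MAG), which spanned 6.45 to 280 FPKM: Spearman's rho was 0.95, and 0.95 without the pons. With neuron markers rho was -0.12, and with astrocyte markers -0.05. These tissues share the same animals, and the part of oligodendrocyte content in the HOXD1 levels was not tested. In 335 libraries of the head outside the pons, 20 had some other member at 1 FPKM or more. The preoptic area library of ZT4 was the only 1 with 3 such members, HOXA4 at 2.75 FPKM and HOXB3 at 1.93 FPKM among them. Its smooth muscle markers summed to 282 FPKM, against 0.736 to 2.50 FPKM in the other preoptic libraries, and its skeletal muscle markers to 438 FPKM, against 3.72 to 20.4.

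Pons libraries were compared with thalamus, a forebrain tissue, and with cerebellum, which also grows from the front of the hindbrain. A row is said to be higher or lower when limma's adjusted p is under 0.05 and the means differ by at least 1 on the scale of log2(FPKM + 0.5). Of 20 members tested, 7 (35%) were higher in pons than thalamus and none lower, where 4.84% of all rows were higher, 3.96% lower and 8.80% called in all. HOXA2, which patterns the hindbrain and the second pharyngeal arch in mice, was 0.663 FPKM at the lowest, 4.29 at the median and 6.61 at the highest in pons, and was listed at 0 in all 12 thalamus libraries (adjusted p 3.62e-10). Every pons library lay above every thalamus library for this gene.

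HOXA5 ran from 0.383 through a median of 2.45 to 20.7 FPKM in pons, against 0, 0 and 0.0905 in thalamus (log2 difference 2.63, SE 0.341, adjusted p 2.06e-06). HOXD1 stood at 4.61, 7.74 and 12.2 FPKM in pons, against 0.932, 1.72 and 3.51 in thalamus (1.82, SE 0.170, adjusted p 1.67e-08). The oligodendrocyte markers of the HOXD1 comparison above were at 221 FPKM in pons, against 105 in thalamus and 26.0 in cerebellum, and their part in the difference of HOXD1 was not tested. Neither gene overlapped between pons and thalamus, and groups without overlap were seen for 5 members and for 1.52% of all rows. HOXA4, HOXC4 and HOXD4 were also higher in pons, but at medians of 0.703, 0.364 and 0.368 FPKM, with values of 0 in both tissues. Each reached 1 FPKM in 4 of the 12 pons libraries. The pons library of ZT4 alone reached 18.9 FPKM of HOXC4, 20.7 of HOXA5, 7.43 of HOXA4 and 7.24 of HOXC5, and that of ZT10 reached 7.09, 8.14 and 2.69 FPKM of HOXC4, HOXA5 and HOXA4. Without these 2 libraries, a choice made after seeing the data, 4 members stayed higher and the differences of HOXA4, HOXC4 and HOXD4 were 0.95, 0.66 and 0.78. HOXC4 also missed the threshold when ZT4, ZT8, ZT10, ZT14, ZT18 or ZT20 alone was left out (0.96 to 1.44 over all 12 fits), and HOXD4 without ZT4, ZT8, ZT10, ZT14 or ZT20 (0.89 to 1.11).

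Set against cerebellum, the same pons libraries gave 7 of 20 tested members higher (35%) and none lower, where 10.2% of all rows were higher and 28.1% called in all. The names were those of the thalamus comparison, with which it shares its pons libraries. HOXD1 in cerebellum was 0.178, 0.609 and 1.38 FPKM (log2 difference 2.88, SE 0.154, adjusted p 6.62e-14) and did not overlap with the pons. Members without overlap numbered 4, against 10.7% of all rows. HOXC4 (adjusted p 0.0271) and HOXD4 (listed at 0 in all cerebellum libraries) missed the threshold again when single times were left out, namely ZT4, ZT8, ZT10 or ZT14 for both and also ZT20 for HOXD4. Among genes of the forebrain and midbrain, OTX2 was lower in pons than thalamus (2.79 against 35.9 FPKM), as were OTX1 (0.0181 against 1.90 FPKM) and EMX2 (0.491 against 3.55 FPKM). HOX partners MEIS1 (13.9 against 3.05 FPKM), MEIS2 (6.03 against 1.91 FPKM) and MEIS3 (6.17 against 1.72 FPKM) were higher in pons than thalamus. In pons against cerebellum PBX3 was higher, MEIS3 lower (6.17 against 23.5 FPKM), and 7 of 16 chromatin genes tested were lower, led by the Polycomb gene CBX7 (4.18 against 30.1 FPKM).

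Of the lowest-numbered members, of groups 1 to 3, those named here peaked in the aorta and kidney. HOXB1, a hindbrain gene, was expressed nowhere, with 20 reads in 19 libraries. HOXD1 was expressed in 22 tissues, most in kidney medulla at 23.2 ± 10.7 FPKM (SD, n = 12 libraries here and for the peaks that follow). HOXA2 was expressed in 19 tissues and HOXA3, which in mice shapes thymus and neck glands, in 10, and both were highest in aorta at 8.19 ± 4.29 and 5.09 ± 2.87 FPKM. HOXB3 was expressed in 10 tissues and peaked in aorta at 14.2 ± 5.22 FPKM. HOXD3 reached 1 FPKM in kidney medulla alone, at 2.64 ± 1.64 FPKM.

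Members of groups 4 to 8 were the most widely expressed. HOXA5, which is needed for the respiratory tract in mice, was expressed in 29 tissues, HOXC4 in 27, HOXB7 in 26, HOXC6 in 21, HOXB6 in 20, HOXA7 in 19, HOXD4 in 18, HOXA4 in 15, HOXB4 in 14, HOXC5 and HOXC8 in 13 each, HOXB5 in 12, and HOXA6 and HOXB8 in 4 each. HOXA5 was highest under the adrenal medulla label at 37.0 ± 17.2 FPKM. HOXA4, HOXB4, HOXB5, HOXC4 and HOXC5 all had their highest mean under the adrenal cortex label, HOXC4 leading at 13.5 ± 8.98 FPKM. HOXB7, whose promoter drives transgenes in the collecting ducts of mice, was highest in kidney medulla at 26.2 ± 10.2 FPKM. Its libraries there ran from 6.66 through a median of 30.0 to 36.6 FPKM. HOXB6, HOXB8 and HOXD4 also peaked in kidney medulla, at 21.1 ± 14.6, 4.83 ± 2.43 and 16.2 ± 10.03 FPKM. HOXC6 and HOXC8 had their highest level in abdominal muscle, at 12.9 ± 4.11 and 15.96 ± 5.99 FPKM. HOXA7 peaked in kidney cortex at 10.9 ± 7.16 FPKM, and HOXA6 in mesenteric fat at 1.43 FPKM.

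High-numbered members, of groups 9 to 13, were restricted to the abdomen, pelvis, limb, skin and a few further sites. HOXA9, a gene of blood progenitors that is active in many leukaemias, was expressed in 20 tissues with a peak in kidney cortex of 41.1 ± 9.51 FPKM. HOXD9 was expressed in 14 tissues with a peak in kidney medulla of 12.6 ± 5.39 FPKM, and HOXC9 in 9 with a peak in abdominal muscle of 8.74 ± 3.52 FPKM. HOXA11 was expressed in 13 tissues, HOXC10 in 10, HOXB9 in 5 and HOXB13 in 4. HOXB13, known for its part in the prostate and in prostate cancer, had the highest mean of any member in any tissue, 51.4 ± 17.98 FPKM in the descending colon. HOXC10, a gene of the lumbar level, followed with 47.2 ± 10.2 FPKM in the gastrocnemian muscle, where its libraries ran from 35.3 through 48.7 to 68.7 FPKM. HOXA11, which with its paralogues builds forearm and kidney in mice, was highest in prostate at 12.3 ± 2.78 FPKM, and HOXB9 in cecum at 12.4 ± 2.32 FPKM. HOXC13, the gene of hair and nail whose loss causes hairlessness in humans, reached 1 FPKM in skin alone at 3.01 ± 1.72 FPKM, from 1.34 through 2.43 to 6.09. HOXC11 did so in the gastrocnemian muscle alone, at 1.41 ± 0.865 FPKM. HOXD12 came closest in the prostate at 0.879 FPKM and HOXC12, with 10 reads in 8 libraries, nowhere; like HOXB1 these 2 did not pass the filter on low values and were not tested.

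Along the gut, from oesophagus to descending colon, members switched on at different segments. HOXA9 averaged 0.110 FPKM in the oesophagus, 0.0427 in the stomach fundus, 0.0103 in the antrum, 0.0888 in the duodenum, 19.5 in the ileum, 12.7 in the cecum, 15.3 in the ascending colon and 9.94 in the descending colon. HOXB9, a gene of thoracic ribs in mice, was listed at 0 in the oesophagus, antrum and duodenum, averaged 0.0398 FPKM in the stomach fundus, 4.50 in the ileum and 12.4 in the cecum. HOXA11 was at 0.00305 FPKM in the ileum and 4.05 in the cecum, and HOXB13 at 0.0774 FPKM in the cecum, 9.68 in the ascending colon and 51.4 in the descending colon. These 4 members thus reached 1 FPKM at the ileum, the cecum or the ascending colon. HOXA7 joined at the ileum (1.90 FPKM), HOXB8 at the cecum (1.29 FPKM) and HOXD9 at the descending colon (1.81 FPKM).

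Other members ran the other way or were broken up along the gut. HOXC5 was expressed in the stomach fundus alone (4.07 FPKM), and HOXC8 and HOXC9 in the ileum alone (5.73 and 1.24 FPKM). Both ileum means include the high library of ZT6, which held smooth muscle markers. Without it the HOXC9 mean would fall below 1 FPKM. HOXC4 averaged 2.35 FPKM in the oesophagus, 9.00 in the stomach fundus, 2.94 in the ileum and 0.366 in the descending colon. HOXA2 (1.40 FPKM), HOXA4 (1.39 FPKM), HOXB4 (1.48 FPKM), HOXC6 (2.34 FPKM), HOXD1 (10.1 FPKM) and HOXD4 (1.08 FPKM) first reached 1 FPKM in the oesophagus. HOXA3 (2.22 FPKM), HOXB3 (2.94 FPKM), HOXB5 (3.24 FPKM), HOXB6 (3.67 FPKM), HOXB7 (4.26 FPKM) and HOXA5 (7.33 FPKM) did so in the stomach fundus. The stomach fundus held 12 members and the antrum beside it 4. The 2 segments also differed in cell content, with gastric epithelium markers at a tissue median of 54.4 FPKM in the fundus and 9028 in the antrum. The part of cell content in their HOX sets was not tested. HOXC6 was absent from the lower end, at 8.67 FPKM in the ileum, 6.56 in the cecum, 2.08 in the ascending colon and 0.0316 in the descending colon.

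**Figure D2:**
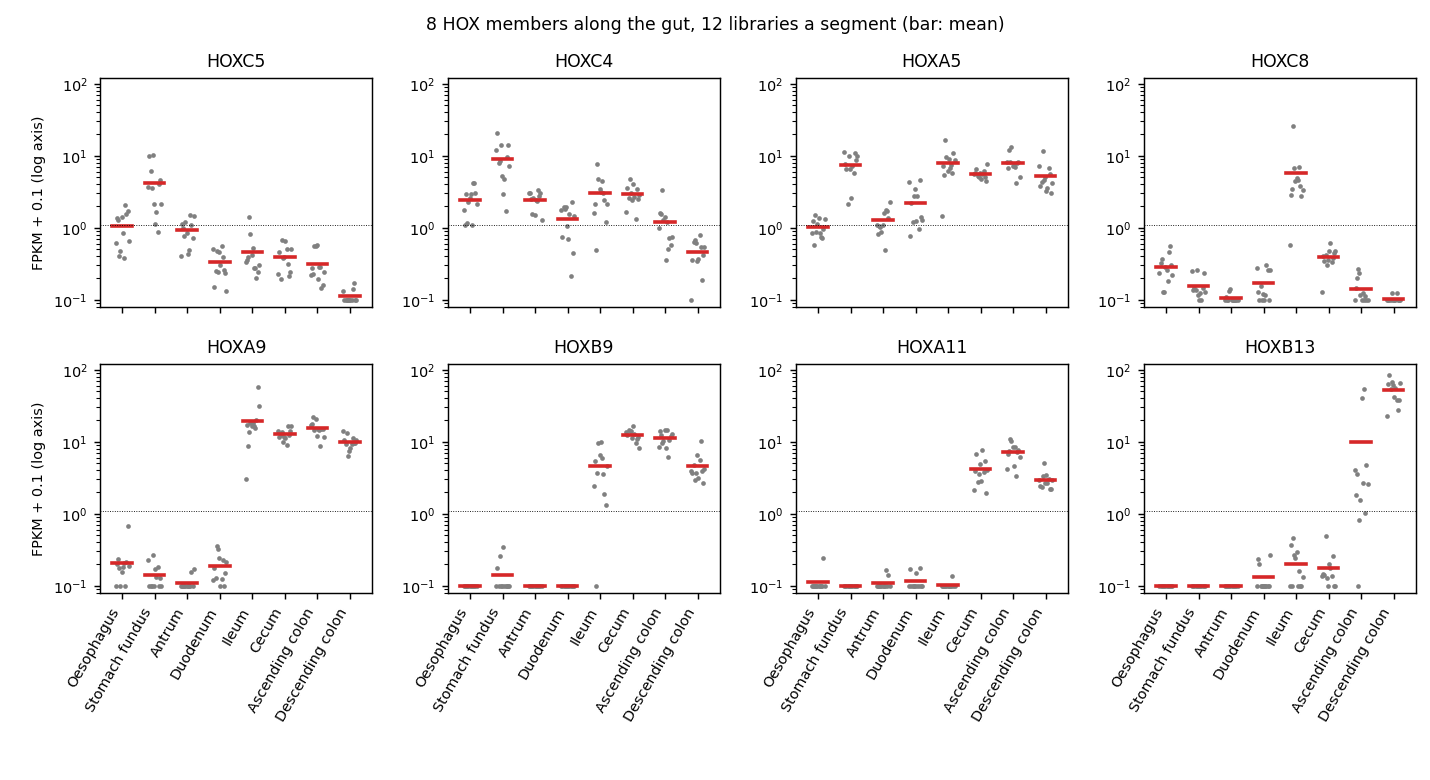
Levels of 8 HOX genes in 8 gut segments from oesophagus to descending colon; dots are the 12 libraries of a segment, bars their mean, on a log axis of FPKM plus 0.1, and the dotted line is 1 FPKM. HOXA9 and HOXB9 appear at the ileum, HOXA11 at the cecum and HOXB13 at the ascending colon, while the mean of HOXC5 passes 1 FPKM in the stomach fundus alone.

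The far ends of the intestine were compared as descending colon against duodenum, and 12 of 28 tested members (42.9%) were higher in descending colon and none lower. Of all rows 7.81% were higher, 4.31% lower and 12.1% called in all, and the median log2 difference was 0.47 for the members and -0.00 for all rows. HOXB13 was 22.9, 54.4 and 83.6 FPKM (lowest, median and highest) in descending colon, against 0, 0 and 0.168 in duodenum, a log2 difference of 6.52 (SE 0.171, adjusted p 7.35e-20). HOXA9 was 6.26, 9.59 and 14.2 FPKM, against 0, 0.0638 and 0.257 (4.13, SE 0.128, adjusted p 1.74e-18). HOXB9 was 2.57, 3.81 and 10.2 FPKM in descending colon and listed at 0 in all duodenum libraries (adjusted p 1.65e-14). No library of either segment crossed into the range of the other for these genes. HOXA11 (2.67, SE 0.106, adjusted p 3.4e-16) and HOXB7 (2.20, SE 0.171, adjusted p 3.17e-10) did not overlap either, nor did HOXD9 (1.88), HOXD1 (1.67) and HOXA7 (1.39), whereas HOXB6 (1.94), HOXB5 (1.44), HOXA5 (1.17) and HOXD4 (1.15) overlapped. In all, 10 tested members did not overlap, against 2.87% of all rows. The caudal genes CDX1 (103 against 18.3 FPKM) and CDX2 (36.7 against 7.09 FPKM), which act on HOX genes in the embryonic hindgut, were higher in descending colon. PDX1, the ParaHox gene of pancreas and duodenum, was lower (0.00575 against 1.69 FPKM), as were GATA4 (0.0568 against 11.1 FPKM) and the HOX partner MEIS2 (1.19 against 5.01 FPKM).

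Descending against ascending colon differed in few genes of any kind: 0.225% of all rows were called, 0.112% in each direction. Of 27 members tested 5 (18.5%) were called, HOXB13 and HOXD1 higher in descending colon and HOXC6, HOXB9 and HOXA11 lower. HOXB13 in ascending colon ran from 0 through 2.54 to 54.2 FPKM (log2 difference 3.71, SE 0.556, adjusted p 0.00125), and it was higher in descending colon at 11 of 12 times. Its high values there came from the ascending colon libraries of ZT12 and ZT16, at 40.0 and 54.2 FPKM, while the other 10 lay between 0 and 4.58. These 2 libraries also had little HOXC6 (0 and 0.0734 FPKM), and by their HOX levels both lay nearest to descending colon. Without them, a choice made after seeing the data, the same 5 members stayed called, and the HOXB13 difference was 4.45. As the 2 libraries were set apart by their own HOXB13 and HOXC6 levels, that fit does not test these genes anew. HOXC6 was 0, 0 and 0.134 FPKM in descending colon, against 0, 1.78 and 6.18 in ascending colon (-1.82, SE 0.353, adjusted p 0.0143), and missed the threshold without ZT2, ZT4, ZT10 or ZT14 (-1.98 to -1.67 over the 12 fits). HOXB9 (-1.26), HOXD1 (1.17) and HOXA11 (-1.13) completed the list. No member and 0% of all rows were without overlap.

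Cecum against ileum crosses from large to small intestine, and 8 of 28 members were higher in cecum and 2 lower (35.7% called, against 26.4% of all rows, of which 20.4% were higher and 5.95% lower). Under quantile scaling the split was 4 higher and 2 lower. HOXA11 was 1.85, 3.74 and 7.69 FPKM in cecum, against 0, 0 and 0.0366 in ileum (log2 difference 3.08, SE 0.168, adjusted p 3.29e-13), with no overlap. HOXB6 was 2.82, 6.82 and 13.9 FPKM in cecum, against 0, 0.745 and 2.56 in ileum (2.52, SE 0.335, adjusted p 9.04e-07), also apart. HOXC8, a gene of the thoracic level, was lower, at 0.0303, 0.294 and 0.514 FPKM in cecum, against 0.479, 4.01 and 25.4 in ileum (-2.58, SE 0.313, adjusted p 2.35e-07). Only the edges of the HOXC8 groups touched. HOXB9 (1.70), HOXB3 (1.42), HOXB8 (1.15), HOXA3 (1.13), HOXA6 (1.09) and HOXD9 (1.07) were higher in cecum and HOXC9 (-1.21) lower. HOXA6 missed the threshold without ZT4 (0.94). The ileum library of ZT6 held 25.4 FPKM of HOXC8 and 4.72 of HOXC9 and a smooth muscle marker sum of 6940 FPKM, against 7.54 to 1086 FPKM in the other ileum libraries. Their part in these levels was not tested, and without the libraries that held or lacked markers 9 members were called. The share of all rows is not given for this count or under quantile scaling. Without overlap were 4 members, against 10.6% of all rows. CDX2 (42.8 against 10.7 FPKM) and CDX1 (57.1 against 31.3 FPKM) were higher in cecum, and so were 6 of 16 chromatin genes tested, led by KMT2A (6.44 against 1.02 FPKM), a trithorax gene.

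In skeletal muscle the comparison was of leg against trunk wall. Of 27 members tested in gastrocnemian against abdominal muscle, 3 were higher and 2 lower (18.5% called, against 3.53% of all rows, 1.98% higher and 1.55% lower). HOXC6 was 0.963, 1.63 and 2.86 FPKM in gastrocnemian, against 2.95, 13.7 and 17.6 in abdominal muscle (log2 difference -2.49, SE 0.208, adjusted p 5.17e-08). HOXC8 was 2.21, 2.83 and 3.41 FPKM, against 0.960, 16.7 and 22.9 (-2.10, SE 0.303, adjusted p 3.98e-05). These were the 2 members lower in the leg, with no overlap for HOXC6 and a single abdominal library below the leg for HOXC8. HOXA11 was 1.36, 3.09 and 5.44 FPKM in gastrocnemian, against 0, 0.270 and 0.856 in abdominal muscle (2.12, SE 0.188, adjusted p 1.13e-07). HOXC10 was 35.3, 48.7 and 68.7 FPKM, against 0.0943, 20.1 and 36.1 (1.90, SE 0.540, adjusted p 0.0126), and HOXC11 had medians of 1.21 and 0 FPKM (1.69, SE 0.191, adjusted p 3.16e-06). HOXA11 and HOXC11 did not overlap, and the share of all rows without overlap was 0.499%. HOXC11 passed the filter on low values through the gastrocnemian muscle alone, the group where it is high. Its call and its lack of overlap are thus not independent of that filter, though it was also called with no filter.

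The abdominal muscle libraries of ZT4 and ZT18 stood apart, with 0.550 and 0.0943 FPKM of HOXC10, and that of ZT18 also held only 0.960 FPKM of HOXC8 and 2.95 of HOXC6. Without these 2 libraries, left out after the data were seen, the same 5 members stayed called. The HOXC10 difference was then 1.10. As the 2 libraries were set apart by their own HOXC10 levels, that fit does not test HOXC10 anew. Among position genes IRX3 was lower in gastrocnemian (0.753 against 3.73 FPKM), and of the chromatin genes KMT2D (10.7 against 3.83 FPKM) and KMT2A (8.002 against 3.317 FPKM) were higher. No HOX partner was called among 8 tested.

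White fat depots were compared first as perirenal against pericardial, below and above the diaphragm. Of 28 members 15 (53.6%) were higher in perirenal fat and none lower, where 7.17% of all rows were higher, 19.8% lower and 27.0% called in all. The members' median log2 difference was 1.32 and that of all rows -0.13. HOXA9 was 5.07, 13.4 and 22.2 FPKM in perirenal fat, against 0.0629, 0.335 and 0.735 in pericardial fat (3.91, SE 0.220, adjusted p 2.94e-11). HOXC8 was 1.97, 7.10 and 11.7 FPKM, against 0, 0.0824 and 1.12 (3.19, SE 0.292, adjusted p 3.32e-07), and HOXC10 was 0.928, 3.46 and 5.28 FPKM, against 0, 0 and 0.101 (2.78, SE 0.188, adjusted p 9.47e-10). These 3 genes, with HOXC9 (2.41) and HOXA7 (2.21), separated the depots without overlap, against 0.716% of all rows.

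HOXA5 (2.84), HOXC6 (2.68), HOXB7 (2.04), HOXA11 (1.86) and HOXD1 (1.70) were higher with overlap, as were 5 other members. In 8 pericardial libraries (ZT0, ZT4, ZT6, ZT8, ZT12, ZT14, ZT18 and ZT20) all 3 T cell markers were present, summing to 546 to 690 FPKM, and the 4 adipocyte markers summed to 24.9 to 442. In the other 4 the T cell sum was 12.7 to 161 FPKM and the adipocyte sum 4937 to 6316. HOXA5 was 0.141 to 1.45 FPKM in the 8 libraries and 17.1, 16.9, 18.2 and 11.1 FPKM in the 4. Against those 4 alone, a choice made after seeing the data, 9 members were called, 6 higher, all among the 15, and 3 lower. The HOXA5 difference was then 0.15 (adjusted p 0.680), that of HOXB7 0.55 (adjusted p 0.21), of HOXA11 1.81 (adjusted p 0.136) and of HOXD1 1.23 (adjusted p 0.222). In 5 perirenal libraries (ZT0, ZT6, ZT8, ZT18 and ZT20) the 3 urothelium markers summed to 51.6 to 411 FPKM, against 0.124 to 0.782 FPKM in the other 7. HOXA11 was 11.0, 8.32, 1.54, 11.0 and 6.44 FPKM in the 5, and HOXD1 8.06, 6.93, 1.60, 11.1 and 5.60 FPKM. Without them, 12 members were called, 11 of them among the 15, and the differences of HOXA11 and HOXD1 were 0.51 and 0.62. The share of all rows called is not given for either choice, so these counts describe the members only. The part of T cells and of urothelium in these results was not tested. Over all libraries 11 of 16 chromatin genes were lower in perirenal fat, led by EZH2 (3.71 against 66.8 FPKM). MEIS1 was higher (11.7 against 3.01 FPKM), PBX2 and PBX4 were lower, and EMX2, a gene of forebrain and urogenital ridge, was higher (6.90 against 0.691 FPKM). These values include the 8 pericardial libraries rich in T cell markers, and values against the other 4 alone are not given. Keratinocyte markers had a median of 25.2 FPKM over pericardial fat, against 0.774, 0.325 and 0.616 at ZT2, ZT16 and ZT22. The part of such cells in the levels of these genes was not tested.

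**Figure D3:**
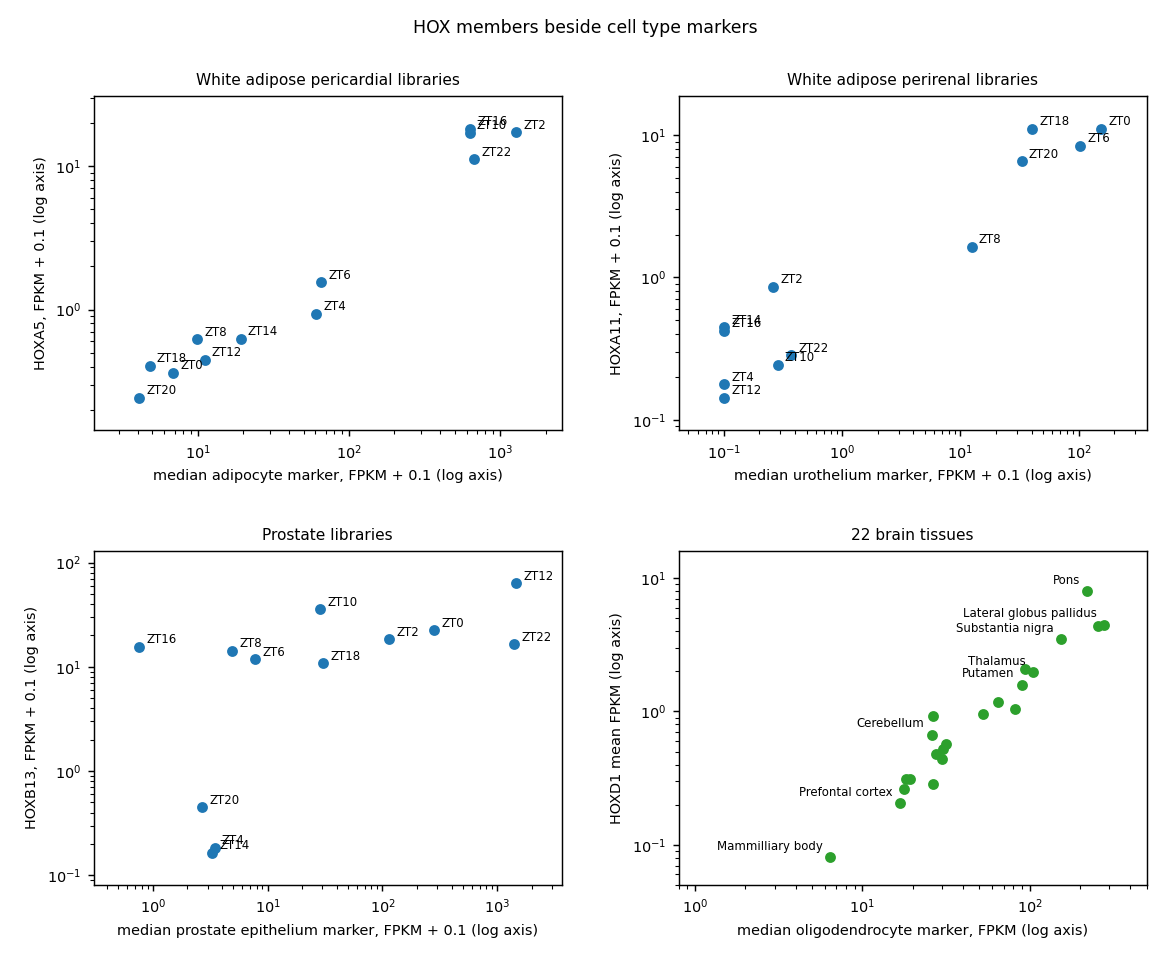
HOX levels against cell type markers on log axes of FPKM, a dot being a library (first 3 panels) or a brain tissue mean (last panel): HOXA5 and adipocyte markers in pericardial fat, HOXA11 and urothelium markers in perirenal fat, HOXB13 and prostate epithelium markers in prostate, and HOXD1 and oligodendrocyte markers in 22 brain tissues. The 4 pericardial libraries rich in adipocyte markers hold 11.1 to 18.2 FPKM of HOXA5, and the brain tissues line up with a rho of 0.95.

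Subcutaneous against mesenteric fat gave 0 members higher and 2 lower of 28 (7.14% called, against 1.15% of all rows, 0.370% higher and 0.777% lower). HOXB6 was 0.349, 1.92 and 4.99 FPKM in subcutaneous fat, against 2.39, 11.9 and 22.4 in mesenteric fat (log2 difference -1.86, SE 0.405, adjusted p 0.0162). HOXB5, a gene of the enteric nervous system, was 0.248, 0.741 and 1.38 FPKM, against 0.532, 2.26 and 7.01 (-1.19, SE 0.269, adjusted p 0.021). Both overlapped. HOXB6 missed the threshold without ZT14 or ZT18 (-2.10 to -1.62 over the 12 fits), HOXB5 without ZT12, ZT14 or ZT22 (-1.32 to -1.05), and the count was 4 without ZT0, ZT2 or ZT4. Under quantile scaling 2 members were higher and 1 lower. The share of all rows is not given for these counts. The 4 skeletal muscle markers summed to 31503 FPKM in the subcutaneous library of ZT4 and to 4.83 to 18.4 FPKM in those of ZT8, ZT10, ZT20 and ZT22, against 40.8 FPKM or more in the rest. In mesenteric fat the urothelium markers summed to 186 and 414 FPKM in the libraries of ZT20 and ZT16, against 0.437 to 16.1 FPKM in the other 10, and the library of ZT10 held B cell markers at 553 FPKM and T cell markers at 327 FPKM. These 3 mesenteric libraries had 1.06, 1.14 and 0.532 FPKM of HOXB5, lower than the other 9. Without the 11 libraries of both depots that held or lacked markers, 2 members were again lower, HOXB5 among them (-1.52, adjusted p 0.0362), and HOXB6 missed the threshold (-2.41, adjusted p 0.0526). The part of these cells was not tested. No member and 0.103% of all rows were without overlap. Apart from HOX genes, the position gene TBX15 was higher in subcutaneous fat (14.7 against 0.497 FPKM), as was TBX5 (1.14 against 0.0179 FPKM).

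Kidney medulla was compared with cortex, tissues of the same position but different cell content. Of 27 members 7 (25.9%) were higher in medulla and none lower, where 12.8% of all rows were higher, 6.37% lower and 19.2% called in all. Under quantile scaling the split was 4 higher and 1 lower, with the share of all rows not given. HOXB5 was 1.08, 5.18 and 10.1 FPKM in medulla, against 0.385, 0.867 and 3.26 in cortex (log2 difference 1.85, SE 0.303, adjusted p 3.55e-05). HOXB6 was 2.96, 18.4 and 47.5 FPKM, against 0.412, 4.80 and 16.7 (1.78, SE 0.483, adjusted p 0.00563), and HOXB9 was 0.831, 4.98 and 8.66 FPKM, against 0.232, 0.835 and 1.74 (1.75, SE 0.303, adjusted p 7.33e-05). Of the 7, 5 belong to cluster B: these 3 with HOXB3 (1.65) and HOXB8 (1.20). HOXD3 (1.38) and HOXD4 (1.01) were the others, and HOXD4 missed the minimum when ZT2, ZT4, ZT10, ZT12, ZT14, ZT16, ZT18 or ZT20 was left out (0.94 to 1.24). HOXD3 passed the filter on low values through the kidney medulla alone, the group where it is high. Its call is thus not independent of that filter, though it was also made with no filter. Medulla and cortex overlapped for every member, and 3.76% of all rows did not overlap.

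The kidney medulla libraries of ZT0, ZT6 and ZT8 held all 4 neuron markers, with sums of 478 to 1037 FPKM against 2.06 to 14.9 in the other 9. Their kidney tubule markers summed to 1074 to 1835 FPKM, against 4102 to 8797. They were also the lowest for HOXD1, at 7.42, 8.07 and 6.24 FPKM. HOXB7 in them was 6.66, 19.1 and 7.54 FPKM. Without the libraries that held or lacked markers, all 7 called members stayed called, and the part of these cells was not tested. In kidney cortex the library of ZT2 had 74.9 FPKM of HOXB7, 32.4 of HOXA7 and 21.2 of HOXC9. Its tubule markers summed to 8191 FPKM against 723 to 5275 in the others, and its skeletal muscle markers to 127 FPKM against 0.248 to 13.7. Of the tubule markers, UMOD (6643 FPKM) and CDH16 (1385 FPKM) lay above the others, while SLC12A1 (160 FPKM) and AQP2 (2.29 FPKM) lay within their range. The part of these cells in its HOX levels was not tested. HOX partners were higher in medulla in 3 of 8 tests, MEIS3 (2.66 against 0.235 FPKM), MEIS2 (5.34 against 1.94 FPKM) and PBX2 (14.3 against 6.49 FPKM), and so were 3 chromatin genes of 16, led by PHC2 (11.4 against 4.79 FPKM).

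**Figure D4:**
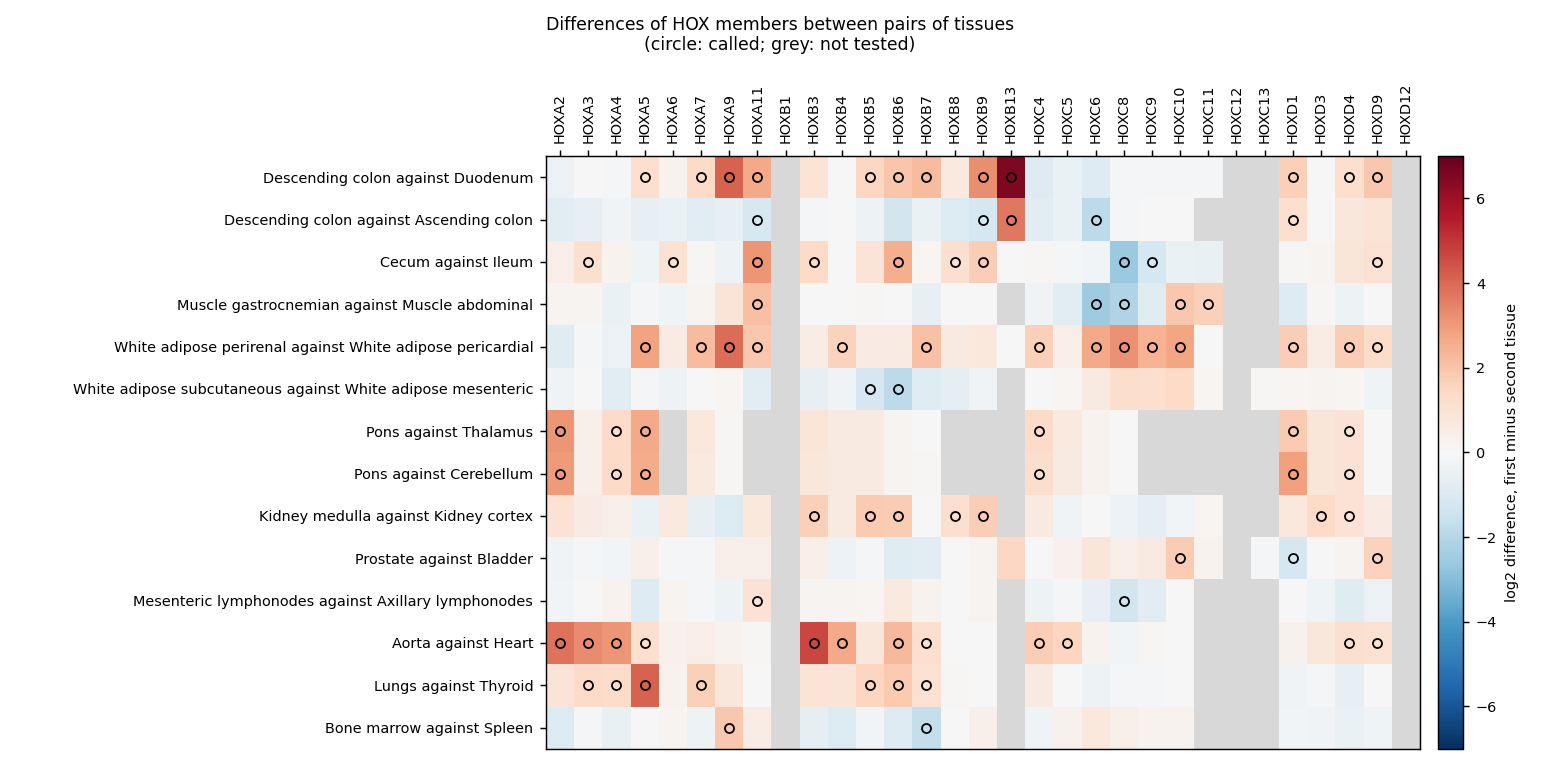
Log2 differences of 31 HOX genes (columns) in 14 tissue comparisons (rows, first-named tissue minus second), on the scale of log2(FPKM + 0.5); a circle marks an adjusted p under 0.05 with a difference of at least 1, and grey a gene not tested there. The largest value is HOXB13 in descending colon against duodenum at 6.52; against a tissue listed at 0 in every library, such as HOXB9 in duodenum, the value depends on the 0.5 added.

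Prostate and bladder lie side by side in the pelvis and expressed 11 and 12 members. Of 29 tested, 2 were higher in prostate and 2 lower, 13.8% called, a share close to the 12.9% of all rows (5.58% higher and 7.28% lower). HOXD9, a gene of the lumbosacral level and hind limb, was 3.25, 5.05 and 5.67 FPKM in prostate, against 0.792, 1.03 and 2.32 in bladder (log2 difference 1.63, SE 0.141, adjusted p 1.97e-09). It was 1 of 2 tested members without overlap, and 3.95% of all rows did not overlap. HOXC10 (1.76, adjusted p 0.000456) was higher with overlap and HOXD1 (-1.15, adjusted p 0.000657) lower.

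HOXB13 in prostate was 10.7 to 63.4 FPKM in 9 libraries and 0.0825, 0.0648 and 0.350 FPKM at ZT4, ZT14 and ZT20, against 1.30 to 6.57 FPKM in bladder. In those 3 libraries ACPP and MSMB, secreted products of prostate epithelium, were at 1.51 to 3.12 and 2.04 to 3.36 FPKM. Their 4 skeletal muscle markers summed to 1969 to 14057 FPKM, against 11.8 to 4269 in the other 9, and the part of muscle in them was not tested. The prostate epithelium sum of the other 9 ranged from 1.98 to 11689 FPKM. Without the 5 prostate libraries low in that epithelium (ZT4, ZT8, ZT14, ZT16 and ZT20), left out after seeing the data, the first 4 members stayed called. TBX15 (24.9 against 0.0063 FPKM) and IRX3 (4.13 against 0.0957 FPKM) were higher in prostate and EMX2 lower (0.801 against 14.3 FPKM), and MEIS2 was higher (42.7 against 10.5 FPKM).

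Mesenteric against axillary lymph nodes set abdomen against armpit. Of 26 members 2 (7.69%) were called, close to the 6.75% of all rows (2.82% higher and 3.93% lower). HOXC8 was lower, at 0.307, 0.563 and 1.45 FPKM in mesenteric nodes, against 1.20, 2.03 and 3.37 in axillary nodes (log2 difference -1.26, SE 0.158, adjusted p 3.84e-06). HOXA11 was 0.0193, 0.629 and 1.22 FPKM, against 0, 0.0299 and 0.0685 (1.01, SE 0.148, adjusted p 1.72e-05), and missed the minimum without ZT0, ZT4, ZT6 or ZT18 (0.96 to 1.10 over the 12 fits). HOXA11 was higher in mesenteric nodes at 12 of 12 times and HOXC8 at 0. The ranges of both touched, and 1 other member (HOXC9) and 0.600% of all rows had no overlap. TBX15 was again apart (0.0134 against 1.03 FPKM).

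Aorta against heart gave 13 of 26 members higher (50%) and none lower, in a comparison where 30.0% of all rows were higher, 12.0% lower and 42.0% called in all. HOXB3 was 5.47, 14.4 and 23.7 FPKM in aorta, against 0, 0 and 0.180 in heart (log2 difference 4.69, SE 0.175, adjusted p 8.29e-18). HOXA2 was 2.68, 8.71 and 16.6 FPKM, against 0, 0 and 0.198 (3.82, SE 0.229, adjusted p 1.22e-13). HOXA3, at 1.27, 4.43 and 11.2 FPKM in aorta, and HOXA4, at 1.37, 3.97 and 9.70 FPKM, were listed at 0 in all 12 heart libraries (adjusted p 2.2e-12 and 6.02e-13). No aorta library overlapped with heart for these genes, nor for HOXB4 (2.63), HOXB6 (2.28) or HOXC5 (1.49), while HOXC4 (1.71) and HOXA5 (1.18) overlapped. In all 9 members did not overlap, against 31.5% of all rows, a share near that of the members. The 4 largest differences were of groups 2 to 4. MEIS3 (31.3 against 0.379 FPKM) and PBX2 (43.8 against 10.5 FPKM) were among 4 of 8 HOX partners higher in aorta, CBX7 (43.4 against 3.25 FPKM) among 6 chromatin genes, and the heart genes TBX5 (0.455 against 19.0 FPKM) and GATA4 (1.95 against 17.5 FPKM) were lower.

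Lungs and thyroid both bud from the foregut. Of 26 members 7 (26.9%) were higher in lungs and none lower, where 12.4% of all rows were higher, 9.73% lower and 22.1% called in all. HOXA5 was 2.87, 19.6 and 24.6 FPKM in lungs, against 0.260, 0.477 and 0.913 in thyroid (log2 difference 4.12, SE 0.236, adjusted p 3.37e-13). The lowest lung library was that of ZT0, which held all 4 neuron markers at a sum of 596 FPKM, against 0.185 to 1.41 FPKM in the other 11. Their part in its level was not tested, and without the libraries that held or lacked markers the HOXA5 difference was 4.24. HOXA7 (1.65, SE 0.144, adjusted p 9.4e-10), HOXB5 (1.50, adjusted p 4.22e-07) and HOXA3 (1.32, adjusted p 2.69e-09) were likewise apart, and HOXB6 (1.81), HOXA4 (1.30) and HOXB7 (1.09) overlapped. Thus 4 members showed no overlap, against 9.23% of all rows. TBX4 (17.2 against 0.00415 FPKM) and TBX5 (6.44 against 0.0266 FPKM), which direct lung branching in mice, were higher in lungs, as was MEIS1 (9.45 against 1.03 FPKM).

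Bone marrow against spleen gave a share of 11.5% of 26 members called, lower than the 24.9% of all rows (16.2% higher and 8.62% lower). HOXA9 was 0.662, 1.75 and 3.29 FPKM in bone marrow, against 0, 0.114 and 0.457 in spleen (log2 difference 1.88, SE 0.155, adjusted p 3.31e-10). HOXB7 was 0.252, 0.995 and 1.18 FPKM, against 1.96, 3.70 and 9.58 (-1.69, SE 0.214, adjusted p 4.21e-07). All 3 called members, these 2 among them, were without overlap, against 7.43% of all rows. Under quantile scaling 1 member was higher and 5 lower, and without ZT20 5 members were called. The share of all rows is not given for these counts. KMT2D was higher in bone marrow (17.4 against 1.48 FPKM) with 6 other chromatin genes of 16, while NKX2-3, a gene of spleen formation in mice (0.0745 against 4.47 FPKM), MEIS2 (0.190 against 2.21 FPKM) and MEIS1 (1.25 against 3.55 FPKM) were lower.

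Libraries that held or lacked markers were left out of 10 of the 14 comparisons, the other 4 having none. The share of all rows called without them is not given, so the counts describe the members only. The members called were then 13 in descending colon against duodenum, 9 in cecum, 16 in perirenal fat, 2 in subcutaneous fat, 7 in pons against each of thalamus and cerebellum, 12 in kidney medulla, 5 in prostate, 13 in aorta and 10 in lungs. Of the calls named above, those lost were HOXB8 in cecum (0.95), HOXA11 (0.62) and HOXD1 (0.83) in perirenal fat, HOXB6 in subcutaneous fat and HOXD1 in prostate (-0.89). In pericardial fat this left out ZT2, ZT16 and ZT22, which are rich in adipocyte markers, and kept the 8 libraries rich in T cell markers. In prostate it left out ZT12 and ZT22, which held prostate epithelium markers. The counts in perirenal fat and prostate therefore do not describe libraries freed of other cell types.

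Summed over the 14 comparisons, which share some tissues, members were higher in 85 of 366 tests (23.2%) and lower in 14 (3.83%), where 9.52% of the tests of all rows were higher and 7.37% lower. Which tissue of a pair is named first was a choice, and swapping them swaps higher and lower. The split of these sums, and of those that follow, depends on that choice. The HOX partners were higher in 17 of 112 tests and lower in 8, the chromatin genes higher in 25 of 224 and lower in 19, the genes of head and limb position higher in 26 of 276 and lower in 23, and the caudal and ParaHox genes higher in 4 of 37 and lower in 2.

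Some libraries that held another organ's markers also had other HOX levels than the rest of their tissue. The smooth muscle libraries of ZT2, ZT10 and ZT12 held adrenal cortex markers at 10545 to 12414 FPKM, against 0 to 991 FPKM in the other 9, and had 32.2, 22.4 and 26.3 FPKM of HOXA5 and 22.1, 9.83 and 13.3 of HOXA9, against means of 37.0 and 19.6 FPKM under the adrenal medulla label. HOXA9 was at most 0.572 FPKM in the other smooth muscle libraries except ZT0, at 4.71. The libraries of ZT0 labelled smooth muscle and adrenal medulla had chromaffin sums of 7843 and 10039 FPKM and the most HOXC6, at 33.9 and 42.9 FPKM. In the other adrenal medulla libraries HOXC6 was 3.25 to 19.5 FPKM. The part of these cells in the levels was not tested.

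Each library was then placed by its HOX levels alone, as the tissue whose mean it correlated with best over the 32 members, its own mean taken without it. Of 420 libraries outside the head 340 (81.0%) lay nearest to their own tissue, and 86 of 347 (24.8%) in the head. All 12 did so in oesophagus, lungs, aorta, axillary lymph nodes, kidney cortex, ileum, cecum, descending colon, bladder, testicles, gastrocnemian muscle and skin. Only 5 of the 420 (1.19%) lay nearest to a tissue of the head, and 35 of the 347 (10.1%) to one outside it. Of the 12 stomach fundus libraries 5 lay nearest to the adrenal cortex label, the prostate library of ZT14 nearest to gastrocnemian muscle, and 3 smooth muscle libraries nearest to the adrenal medulla label. Tissue accounted for a median of 88.0% of the variance of log2 levels over the 29 members that passed the filter (61.2% to 94.2%), against a median of 71.9% over all rows that passed. These figures describe the libraries, since animals are shared by all tissues.

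Within a cluster, tissue profiles were more alike the closer the group numbers of 2 genes, which are not always neighbours when the numbers differ least. HOXA7 and HOXA9, for 1, are neighbouring rows here but differ by 2. Over the 35 tissues outside the head, 18 pairs in the same cluster whose group numbers differ by 1 had a median Pearson's r of 0.77, on log2 means. It was 0.56 for 45 pairs 2 to 4 groups apart and 0.15 for 35 pairs at least 5 apart. Between clusters the median was 0.51 for the 26 pairs of the same number, 0.48 for 44 pairs differing by 1, 0.38 for 124 pairs 2 to 4 apart and 0.09 for 114 pairs at least 5 apart. HOXC9 with HOXC10 (0.94), HOXC8 with HOXC9 (0.91), HOXA7 with HOXA9 (0.91), HOXD3 with HOXD4 (0.90) and HOXB5 with HOXB6 (0.89) were the most alike. All points share the same libraries. Of the members, 8 lie in 6 overlapping pairs of gene models (HOXA3, HOXA4, HOXA5 and HOXA6, HOXC4 with HOXC5, and HOXC6 with HOXC8), whose reads could be split between them, so likeness and levels in these pairs are uncertain.

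**Figure D5:**
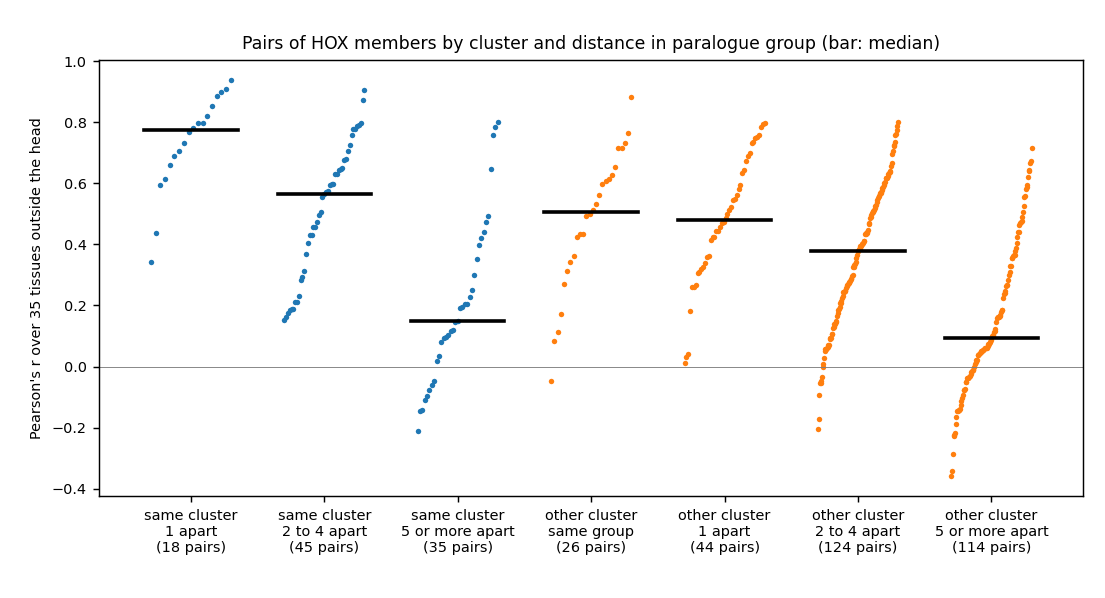
Pearson's r of pairs of HOX genes over 35 tissues outside the head (vertical axis), for pairs in the same cluster and in other clusters and by the gap between their group numbers (horizontal axis); a dot is a pair and a bar the median. In the same cluster the medians are 0.77, 0.56 and 0.15 from near to far, and between clusters 0.51, 0.48, 0.38 and 0.09.

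Finally, the 396 expressed pairs were tested for a 24 h cosine over the 12 times with limma's F test. A rhythm was called in 16 pairs (4.04%), less than the 6.51% of all tests in the same tissues, and 59 had an unadjusted p under 0.05. HOXA4 made up 5 of the 16. Its fitted peak was 5.24 times its trough under the adrenal medulla label, with the peak at 5.81 h (adjusted p 0.00808), 4.89 times in gastrocnemian muscle with the peak at 7.55 h (adjusted p 0.0264) and 5.33 times in abdominal muscle at 7.39 h (adjusted p 0.0294). It was 2.84 times in omental fat at 9.49 h and 5.08 times in stomach fundus at 6.43 h. HOXB6 made up another 5, in bladder, adrenal medulla label, ileum, kidney cortex and omental fat, with ratios of 4.47 to 7.78. The rest were HOXA7, HOXC6 and HOXD4 in omental fat, HOXA9 in gastrocnemian muscle, HOXC4 in stomach fundus and HOXB13 in bladder (3.62 times, peak at 8.31 h, adjusted p 0.00941). The smooth muscle markers of omental fat summed to 12.6 to 78.4 FPKM in the libraries of ZT0, ZT2, ZT4 and ZT6, against 2388 to 18813 FPKM in the other 8, so that this marker level runs with the labelled time. HOXA7 in omental fat was 2.96 to 4.90 FPKM in those 4 libraries, against 0.464 to 1.52 FPKM in the other 8. The part of smooth muscle content in the 5 omental rhythms was not tested. Without libraries that held or lacked markers, omental fat kept 6 libraries and was not fitted, 9 of the other 11 calls remained, and HOXA4 and HOXC4 in stomach fundus were lost (adjusted p 0.154 and 0.158). With the main axis of difference among a tissue's libraries as a covariate none was called at an adjusted p under 0.05 and 42 had an unadjusted p under 0.05. Since each time is 1 animal, these fits do not separate time from animal.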

How the data were processed

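RNA was measured in 64 baboon tissues, with 12 libraries each and 11 of the iris, all polyA-selected and prepared with a stranded kit per the labels' protocols. The deposited table gives FPKM per gene and library. As tools, without roles or versions, DESeq2, featureCounts and STAR appear in the processing notes of the submitters. The genome build and the use of strand in counting were not given in the sources used here. Each deposited FPKM value is a whole number of reads times a step of the gene and a step of the library. Reads were recovered on that basis for all 26546 rows above 0 (100% of them whole within 0.01), and steps of libraries matched size factors by the median of ratios within 1e-09. Depth was 32790 to 31811286 reads a library, with quartiles of 6152642 and 10687738, which limits low levels: a level of 0 allows up to 3 reads, covering counting error only.

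Samples were grouped by the labelled tissue. Comparisons used limma 3.58.1 in R 4.3.3 on log2(FPKM + 0.5), with a variance trend, over rows with a mean of at least 1 FPKM in at least 1 of the 64 tissues (20407 rows, 29 of the 32 members) and a value above 0 in the comparison. P-values were two-sided and adjusted by Benjamini-Hochberg over all these rows, and a difference of at least 1 was asked for. Rhythms were fitted per tissue with a 24 h cosine and limma's moderated F test. Summaries used Python 3.11.15, numpy 2.4.6, pandas 2.3.3 and matplotlib 3.10.9. The fits were tested on simulated data. Libraries of the same time come from the same animal per the labels, so the labelled time was tried as a block. Deviations of same-time libraries had a median correlation of 0.10 to 0.46 over the comparisons, and those of different times -0.09 to 0.01. A library held a list's markers when their median level reached 10 FPKM and at least 20 times the median of its tissue. It lacked them when the tissue median reached 10 FPKM and the library was below it by that factor. The rule does not ask whether the list is of the tissue's own cells.

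All members were counted, and 1 of them and a few other genes are not reported here by name. In each comparison called members were named by size of the difference, up to 10, and of the lists of HOX partners (9 genes), caudal and ParaHox genes (6), chromatin genes (18) and head and limb position genes (24) the called ones with the largest difference, up to 3 each; those named beyond this were chosen after seeing their values. Members and lists were chosen with earlier results of these data known. Alternatives were other pseudocounts, filters and scaling, no minimum difference, a rank-sum test, voom on recovered reads, the block, each time left out and marker libraries left out. Leaving out named ascending colon, abdominal muscle, pericardial, perirenal, prostate and pons libraries was chosen after seeing the data. Sequences were not used here.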

Additional observations from a re-analysis of the deposited data

How the results depend on the processing

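Of 89 member calls examined, up to 10 a comparison, none changed direction under the settings tried, and 36 missed the threshold under at least 1 setting, 10 of them when 1 time was left out. The cause was not tested where a count moved, except that dropping the minimum difference or adding a smaller pseudocount lets small differences of low genes through by construction. A setting can change the calls of all rows as well. Their share is not given for the counts under other settings, here or above, so these counts do not set members against all rows. With no minimum difference the members called were 19 in descending colon against duodenum, 9 in descending against ascending colon, 8 in gastrocnemian against abdominal muscle, 11 in pons against thalamus, 13 in pons against cerebellum, 12 in kidney, 13 in prostate against bladder, 10 in lymph nodes, 20 in aorta against heart, 17 in lungs against thyroid and 15 in bone marrow against spleen. By voom on recovered reads they were 21 in descending colon against duodenum, 9 in descending against ascending colon, 4 in subcutaneous against mesenteric fat, 12 in pons against thalamus, 20 in pons against cerebellum, 8 in prostate, 7 in lymph nodes, 18 in lungs and 14 in bone marrow. With a pseudocount of 0.1 they were 10 in descending against ascending colon, 4 in subcutaneous fat, 14 in pons against thalamus, 14 in pons against cerebellum, 6 in lymph nodes, 14 in lungs and 12 in bone marrow. With a pseudocount of 1 they were 4 in cecum, 1 in subcutaneous fat, 4 in pons against thalamus, 4 in pons against cerebellum, 0 in lymph nodes, 8 in aorta and 4 in lungs. A rank-sum test called 0 in descending against ascending colon and 0 in subcutaneous fat, where limma called 5 and 2. Quantile scaling gave 6 in cecum and 6 in bone marrow. It moved the median difference of all rows from 0.23 to -0.04 in aorta, from 0.23 to 0.04 in kidney, from 0.14 to -0.02 in cecum and from -0.13 to 0.03 in perirenal fat. A filter of 1 FPKM in either tissue gave 4 in subcutaneous fat and 1 in lymph nodes. Without marker libraries kidney gave 12, without the 8 pericardial libraries perirenal fat gave 9, and without the pons libraries of ZT4 and ZT10 pons gave 4 against each of thalamus and cerebellum.

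Leaving out each time in turn gave 12 to 13 calls in descending colon against duodenum, 4 to 7 against ascending colon, 9 to 11 in cecum, 5 to 6 in gastrocnemian muscle, 15 to 15 in perirenal fat, 0 to 4 in subcutaneous fat, 5 to 7 in pons against thalamus, 5 to 7 in pons against cerebellum, 7 to 8 in kidney, 4 to 5 in prostate, 1 to 3 in lymph nodes, 11 to 13 in aorta, 7 to 8 in lungs and 3 to 5 in bone marrow. With the labelled time as a replicate block, 6 members were called in descending against ascending colon, and the block changed no other count and lost no call. For rhythms, a filter of 5 FPKM left 5 pairs called, a linear trend over time called 4, and the library axis as a covariate 0.

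The number of expressed pairs was 531 at a threshold of 0.5 FPKM, 276 at 2 FPKM and 374 without marker libraries. Depth limits members near 0, and overlapping gene models and unstated strand use in counting limit the members of clusters A and C named above.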

Other observations

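Non-coding rows of the HOX clusters had their own tissue profiles. A part of HOXA11-AS1 (HOXA11-AS1_6 in the table), an antisense RNA beside HOXA11, averaged 18.06 FPKM in ascending colon, 16.01 in prostate and 14.4 in descending colon, where HOXA11 itself averaged 7.02, 12.3 and 2.85 FPKM. Of HOXB13-AS1, the row HOXB13-AS1_1 averaged 3.18 FPKM in descending colon and 2.18 in prostate. HOTAIR, an RNA of the HOXC cluster, reached 1 FPKM with its row HOTAIR_4 in prostate (1.75 FPKM) and gastrocnemian muscle (1.27 FPKM). HOTAIRM1_4, a row of an RNA of the HOXA cluster, averaged 134.8 FPKM in kidney cortex, 104.9 in white adipose tissue and 90.1 in pons. Reads of a gene and its antisense partner cannot be told apart if strand was not used in counting.

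Over the 64 tissue means, the gene most alike to each member by Spearman's rho was also looked up. HOXC13 lay nearest to KRTAP9-1, a hair keratin-associated protein gene (0.67), and HOXB13 to ISX, an intestinal homeobox gene (0.68), with CDX2 next (0.67). HOXB7 and HOXB6 lay nearest to XPNPEP2 (0.89 and 0.87), and HOXD1 to ASPA (0.62). HOXB4 lay nearest to FCER1A (0.84), HOXB3 to SDPR (0.82) and HOXA3, HOXA5 and HOXB5 to MMP7 (0.80, 0.79 and 0.81). These are descriptions over tissues that share animals, with no test.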
